A study of Mus musculus with 6 samples.

Results

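Collagens are the triple-helical proteins of the extracellular matrix. The genes described here are the protein-coding genes of the mouse count files whose symbol in GENCODE M21 has the form Col, a type number, a and a chain number. There were 44 of them among 54232 genes, and all were kept whatever their level. By type they were divided into 11 fibrillar genes (types I, II, III, V, XI, XXIV and XXVII), 6 basement membrane genes (type IV), 9 FACIT genes (fibril-associated collagens with interrupted triple helices) and 18 others. RNA was sequenced from whole liver of chow-fed male C57BL/6 mice (8 to 10 weeks old), with 3 libraries in each of 2 groups. Both groups lacked FXR, the bile acid receptor encoded by Nr1h4 (Fxr-/-). The controls, labelled SKO, also carried floxed Xbp1 (Xbp1fl/fl), and the other group, called DKO, had lost Xbp1 in the liver (Xbp1LKO). The Cre driver and the deleted exons are not stated in the sources used here. Livers with FXR were not analysed here, so every difference is between FXR-null groups.

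A collagen chain is made of long runs of glycine-containing triplets, and 3 chains wind into a helix inside the endoplasmic reticulum (ER), where prolines and lysines are hydroxylated first. Fibrillar collagens are then cut, packed into fibrils and crosslinked outside the cell, while type IV forms the sheet of basement membranes. In liver, stellate cells and portal fibroblasts are known as main sources of fibrillar collagen, and fibrillar collagen accumulates in fibrosis. Type XVIII, by contrast, is known to be made largely by hepatocytes. XBP1 drives a branch of the unfolded protein response, which adjusts how much protein the ER can fold and export.

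Total counts were between 16966422 and 21107674 per library. Levels are given as normalised CPM (counts scaled to library size), in which 3 counts, the 95% limit behind a zero count, correspond to 0.126 to 0.191 by counting error alone. Xbp1 was counted at 225, 260.2 and 254 CPM in SKO versus 95.7, 67.0 and 68.2 CPM in DKO replicates 1 to 3. Each DKO library was thus below every SKO library, an edgeR log2 change of -1.68 ± 0.14 (SE, adjusted p = 0.000146). Nr1h4 was counted at 92.7 to 105 CPM in SKO versus 93.7 to 100.4 CPM in DKO, so its transcript was detected in both groups. These whole-gene counts do not check the Nr1h4 allele. In whole liver, fewer cells of a type and less RNA per cell cannot be told apart. Nothing in the labels states that each library is a different animal, and p-values therefore measure the spread among these samples only, some of which may be technical. Titles of 3 DKO libraries and 1 SKO library carry a pair of numbers with no stated meaning.

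Genes for type I, III, IV and VI collagen chains were among those that rose in DKO, while Col18a1, the collagen with the highest level in every library, fell. Of the 44 genes, 26 passed the filter on low counts and were tested. In edgeR, 13 were called higher and 2 lower at an adjusted p under 0.05, and 11 were not called. Among all 13986 genes tested, 10.3% were called higher and 9.7% lower. By class, 4 of 8 fibrillar genes, 4 of 5 type IV genes, 2 of 4 FACIT genes and 3 of 9 others were higher. One fibrillar gene, Col5a3, and 1 other, Col18a1, were lower. The median log2 fold change of the 26 was 0.83, against 0.006 for all genes tested. In 14 of the 26, every DKO library was above every SKO library, against 20.2% of all genes tested, and in 3 every DKO library was below, against 19.4%. DKO replicate 1 was the highest of the 6 libraries for 17 of the 26 collagen genes, and for 26.6% of all genes tested.

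**Figure D1:**
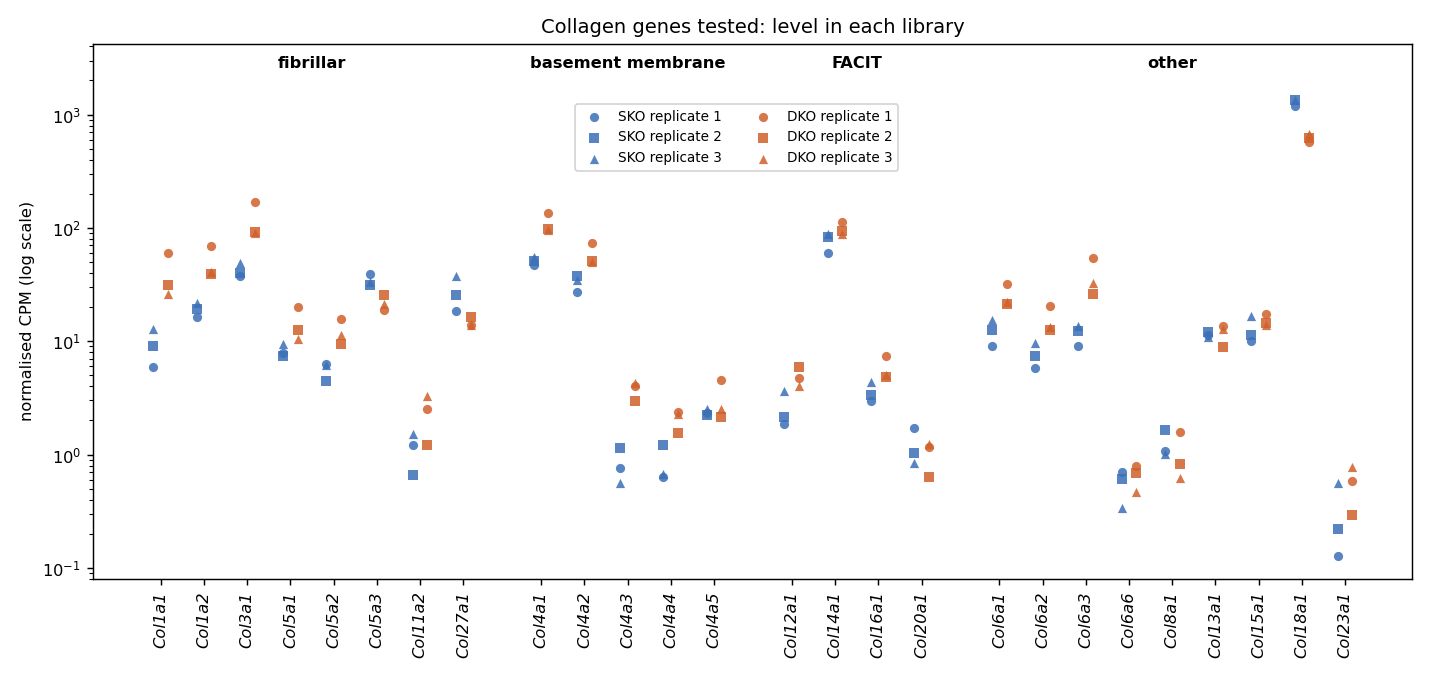
Level of each of the 26 tested collagen genes in each library, in normalised CPM on a log axis, grouped by class (blue, SKO; orange, DKO; symbols mark the replicate). Col18a1 is the highest gene and is lower in all DKO libraries, at 571 to 669.8 CPM, while Col1a1, Col3a1, Col4a1 and Col6a3 are higher in all DKO libraries, with DKO replicate 1 at the top.

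**Figure D2:**
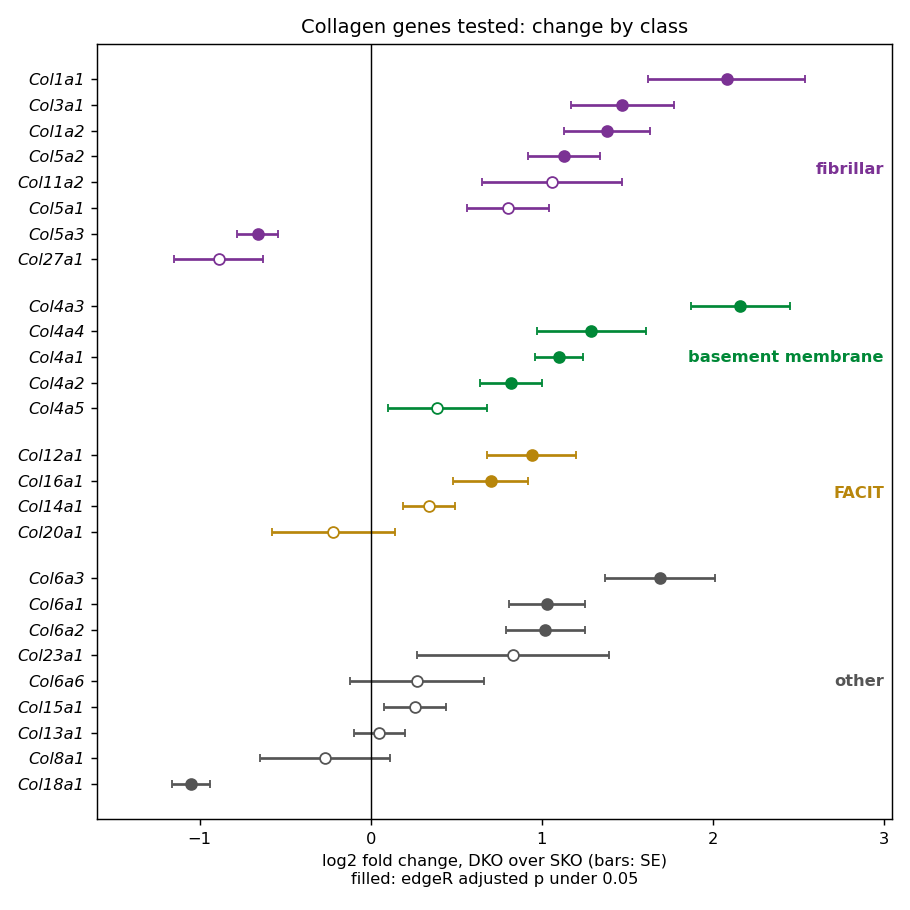
Log2 fold change of DKO over SKO for the 26 tested collagen genes by class, with SE bars (filled points, edgeR adjusted p under 0.05). The 13 filled points to the right of 0 run from 0.70 for Col16a1 to 2.16 for Col4a3, and the 2 filled points to the left are Col5a3 and Col18a1.

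The number of calls depended on which libraries were included, and for collagen genes it fell most without a SKO library. With 1 library left out, the collagen genes called higher numbered 6, 5 and 9 when SKO replicate 1, 2 or 3 was missing, and 11, 12 and 12 when DKO replicate 1, 2 or 3 was missing. The genes called lower numbered 2 or 3. The share of all genes called in these fits was not counted, so a loss of calls among genes in general is not separated here. Among the genes that mature, bind and break down collagen, described below, calls higher also dropped. They numbered 22, 17 and 18 without SKO replicate 1, 2 or 3, against 30 in the main fit. Without DKO replicate 1, 2 or 3 they numbered 20, 30 and 23. Col4a1, Col4a3 and Col5a2 among the higher genes and Col5a3 and Col18a1 were called in each of these fits, and the other 10 higher genes each failed at least 1 of them (largest edgeR adjusted p, 0.146). None of the 15 called genes changed sign under any of the 12 other fits.

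**Figure D3:**
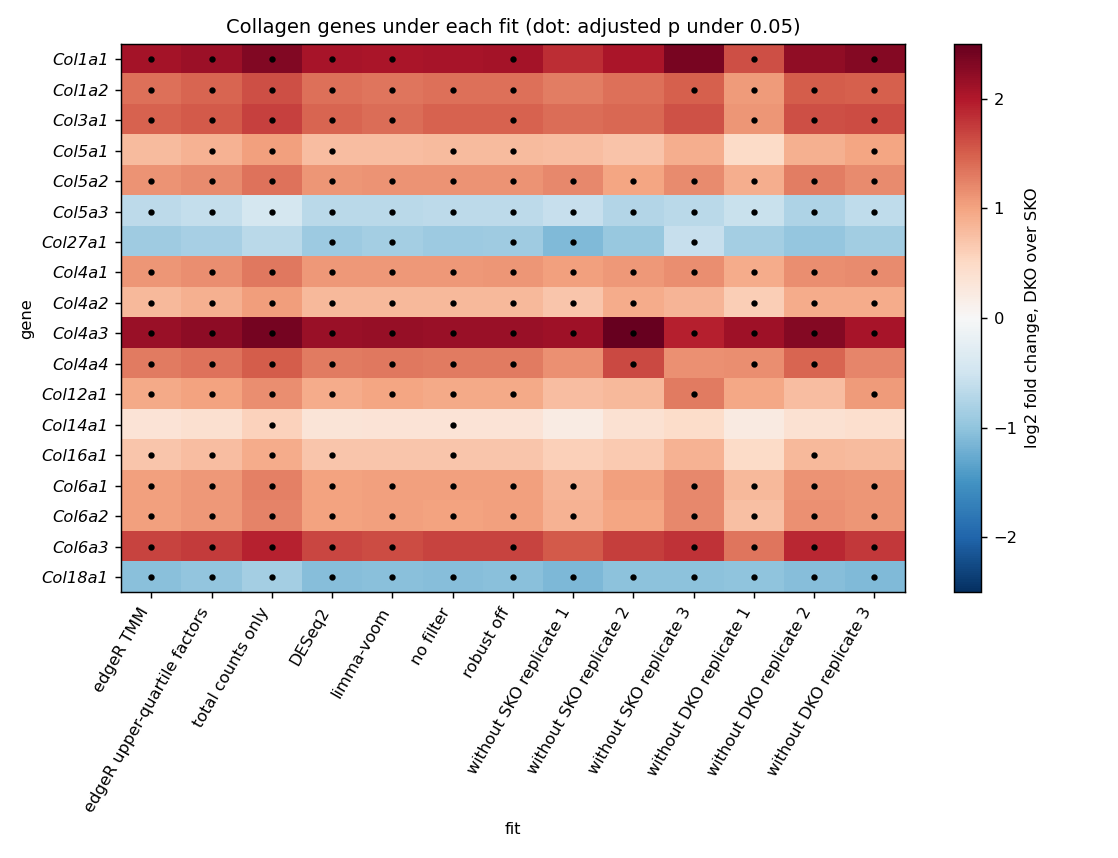
Log2 fold change of DKO over SKO (colour) under the main fit and 12 others for the 15 called collagen genes and Col5a1, Col14a1 and Col27a1 (a dot marks an adjusted p under 0.05). Colours keep their side of 0 across all columns, and most dots missing for the 15 called genes are in columns where a SKO library was left out.

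Promoter sequences are shown for the 3 called genes with the largest rises that had an entry in the RefSeq promoter table (Col6a3, Col3a1 and Col1a2) and for both genes that fell. Each is the 250 bases before a transcript start in GRCm38.p6, 5′ to 3′ on the gene's strand: Col1a2 at chr6:4505368-4505617 (+), Col3a1 at chr1:45311288-45311537 (+), Col6a3 at chr1:90843972-90844221 (-), Col5a3 at chr9:20815068-20815317 (-), and Col18a1 at chr10:77166531-77166780 (-) and chr10:77113706-77113955 (-), its 2 starts in the table. Capitals mark matches on either strand. The motifs searched were TATAAA, known as the TATA box, the CCAAT box, the GC box, spelled GGGCGG, and the core ACGTG that XBP1 and related factors are known to bind. The last was the ER stress element, in which the letters CCAAT are followed after 9 bases by the letters CCACG, so that it overlaps the CCAAT box.
Col1a2: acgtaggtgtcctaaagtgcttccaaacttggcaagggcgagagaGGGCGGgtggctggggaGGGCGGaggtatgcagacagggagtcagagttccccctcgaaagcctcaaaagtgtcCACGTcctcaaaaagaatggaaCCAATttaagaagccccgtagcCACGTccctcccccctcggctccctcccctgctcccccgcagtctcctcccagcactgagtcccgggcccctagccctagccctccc
Col3a1: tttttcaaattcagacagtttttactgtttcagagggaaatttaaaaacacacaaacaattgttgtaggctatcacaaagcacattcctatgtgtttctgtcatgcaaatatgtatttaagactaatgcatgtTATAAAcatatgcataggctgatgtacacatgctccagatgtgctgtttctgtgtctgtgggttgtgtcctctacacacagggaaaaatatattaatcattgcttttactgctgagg
Col6a3: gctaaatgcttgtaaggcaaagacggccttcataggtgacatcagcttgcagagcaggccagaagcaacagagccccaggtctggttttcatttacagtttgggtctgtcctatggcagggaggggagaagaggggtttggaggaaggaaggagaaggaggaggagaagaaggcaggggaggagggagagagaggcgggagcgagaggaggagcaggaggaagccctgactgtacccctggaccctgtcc
Col5a3: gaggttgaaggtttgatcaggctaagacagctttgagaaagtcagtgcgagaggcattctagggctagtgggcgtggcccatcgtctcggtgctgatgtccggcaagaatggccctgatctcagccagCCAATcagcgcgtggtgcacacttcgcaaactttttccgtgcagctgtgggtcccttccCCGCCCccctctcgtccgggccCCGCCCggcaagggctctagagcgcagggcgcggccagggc
Col18a1 upstream start: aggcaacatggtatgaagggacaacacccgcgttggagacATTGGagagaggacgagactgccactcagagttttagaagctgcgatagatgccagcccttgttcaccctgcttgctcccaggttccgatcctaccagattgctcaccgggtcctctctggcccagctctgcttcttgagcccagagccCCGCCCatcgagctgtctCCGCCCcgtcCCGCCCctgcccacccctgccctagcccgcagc
Col18a1 downstream start: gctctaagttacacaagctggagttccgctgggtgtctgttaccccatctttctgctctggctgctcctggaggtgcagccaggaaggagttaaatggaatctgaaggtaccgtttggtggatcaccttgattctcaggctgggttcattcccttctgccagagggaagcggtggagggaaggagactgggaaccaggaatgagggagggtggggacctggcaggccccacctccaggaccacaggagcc

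The Col3a1 window held 1 TATAAA and no GC box, and the Col1a2 window held 2 GC boxes, 1 CCAAT and 2 matches to ACGTG, both as its reverse complement. The Col5a3 window held 1 CCAAT and 2 GC boxes, and the upstream window of Col18a1 held 1 CCAAT and 3 GC boxes. The Col6a3 window and the downstream window of Col18a1 held none of the motifs. The counts here cannot say from which start Col18a1 was transcribed. The table had 38 windows for 35 of the 44 collagen genes. Of these windows, 22 held GGGCGG, 13 CCAAT, 5 TATAAA, 5 ACGTG and 0 the ER stress element, against 32.7%, 33.8%, 12.4%, 16.6% and 0.113% of all 32851 windows of that length. Among the 10 windows of 9 genes called higher, 5 held GGGCGG, 4 CCAAT, 2 ACGTG and 1 TATAAA. A match describes these letters and is not evidence of binding.

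Type I and type III collagens, the main fibril formers of scar tissue, had the largest rises among the called fibrillar genes. Col1a1 (ENSMUSG00000001506), the alpha1 chain of type I, encoded at chr11:94936224-94953042 (+) in mm10, was at 5.91, 8.99 and 12.8 CPM in SKO versus 60.2, 31.0 and 25.9 CPM in DKO. The lowest DKO library was above the highest SKO library, and DKO replicate 1 stood above the other DKO libraries. Its mean went from 9.22 ± 3.44 to 39.0 ± 18.5 CPM (SD, n = 3 per group), a 4.23-fold rise (edgeR log2 fold change 2.08 ± 0.46, adjusted p = 0.0379). Without DKO replicate 1 the log2 fold change was 1.62, still called, but the call ended on leaving out any SKO library or DKO replicate 2, and without a filter on low counts.

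Col1a2, the partner alpha2 chain, was at 16.3, 19.2 and 21.95 CPM in SKO versus 69.0, 39.5 and 41.1 CPM in DKO (edgeR log2 fold change 1.38 ± 0.25, adjusted p = 0.0146). Col3a1 (chr1:45311538-45349706 (+)), whose chains form the type III homotrimer of reticular fibres, was at 37.6, 40.4 and 49.2 CPM in SKO versus 169.8, 93.0 and 89.4 CPM in DKO (edgeR log2 fold change 1.47 ± 0.30, adjusted p = 0.0268). For both genes the groups did not overlap and DKO replicate 1 was again the highest. Both lost their call without SKO replicate 1 or without SKO replicate 2, and Col3a1 also without SKO replicate 3 and without a filter. Together Col1a1, Col1a2 and Col3a1 summed to 59.8, 68.6 and 83.9 CPM in SKO and to 299, 164 and 156 CPM in DKO.

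Type V chains, which join type I in mixed fibrils and limit fibril width, did not move together. Col5a2 rose from 5.64 ± 0.995 to 12.3 ± 3.26 CPM (edgeR log2 fold change 1.13 ± 0.21, adjusted p = 0.00678), with SKO libraries at 6.29, 4.49 and 6.13 CPM and DKO libraries at 15.9, 9.52 and 11.5 CPM. Col5a1 was at 7.94, 7.45 and 9.51 CPM in SKO versus 20.1, 12.6 and 10.5 CPM in DKO. Its groups did not overlap but it was not called (edgeR log2 fold change 0.80 ± 0.24, adjusted p = 0.0536). It was called in 6 of the other fits, among them DESeq2. Col5a3 (ENSMUSG00000004098, chr9:20770050-20815067 (-)) went the other way and fell 1.58-fold, from 39.0, 31.3 and 33.5 CPM in SKO to 18.98, 25.4 and 21.4 CPM in DKO (edgeR log2 fold change -0.66 ± 0.12, adjusted p = 0.00546). It was the most counted of the type V genes in SKO, and its groups did not overlap.

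The remaining fibrillar genes tested were not called. Col27a1, which encodes a fibrillar collagen best known from cartilage, was at 18.4, 25.5 and 37.9 CPM in SKO versus 13.9, 16.3 and 13.9 CPM in DKO, so all DKO libraries were below all SKO libraries. Its log2 fold change was -0.89 ± 0.26 with an edgeR adjusted p of 0.0540, and SKO spread widely (27.3 ± 9.87 CPM). It was called lower by DESeq2, by limma-voom, without robust estimation and without SKO replicate 1 or 3. Col11a2 was at 1.13 ± 0.436 CPM in SKO versus 2.35 ± 1.06 CPM in DKO, with overlapping groups (edgeR log2 fold change 1.06 ± 0.41, adjusted p = 0.103). It was called higher under total-count scaling, without a filter and without DKO replicate 2.

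Of the 6 type IV genes, the 2 that make the ubiquitous basement membrane network both rose. Col4a1 (chr8:11198423-11312826 (-)) was at 46.7, 51.1 and 55.8 CPM in SKO versus 134, 98.1 and 95.9 CPM in DKO, without overlap (edgeR log2 fold change 1.10 ± 0.14, adjusted p = 0.00130). Col4a2 was at 27.1, 37.4 and 34.5 CPM in SKO versus 74.0, 50.6 and 50.5 CPM in DKO (edgeR log2 fold change 0.82 ± 0.18, adjusted p = 0.0215), and lost its call without SKO replicate 3. These 2 genes sit head to head on chromosome 8, with their first exons overlapping by 22 bases in GENCODE M21 and their starts 21 bases apart.

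The alpha3 and alpha4 chains, which belong to specialised basement membranes such as that of the kidney glomerulus, were scarce and also rose. Col4a3 (ENSMUSG00000079465, chr1:82586921-82722059 (+)) was at 0.762, 1.15 and 0.563 CPM in SKO versus 3.99, 2.98 and 4.25 CPM in DKO. Its 4.53-fold rise (edgeR log2 fold change 2.16 ± 0.29, adjusted p = 0.00101) was the largest fitted change of any tested collagen gene, and here DKO replicate 3, not replicate 1, was the highest. Col4a3 was counted from 12, 21 and 10 reads in SKO and 95, 61 and 82 in DKO. It shares 563 of its 9967 exon bases with a gene on the other strand, C430014B12Rik, which had 9, 27 and 24 counts in SKO and 28, 22 and 11 in DKO.

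Col4a4, head to head with Col4a3 on chromosome 1 with starts 72 bases apart, was at 0.635, 1.21 and 0.675 CPM in SKO versus 2.39, 1.56 and 2.28 CPM in DKO (edgeR log2 fold change 1.29 ± 0.32, adjusted p = 0.0195). Its call did not survive the loss of replicate 3 of either group or of SKO replicate 1. Col4a5, the partner of alpha3 and alpha4 in their trimer, was at 2.35, 2.25 and 2.53 CPM in SKO versus 4.58, 2.15 and 2.54 CPM in DKO, with overlapping groups and DKO replicate 1 the highest (edgeR log2 fold change 0.39 ± 0.29, adjusted p = 0.378). Without DKO replicate 1 its log2 fold change was -0.02. Its head-to-head neighbour Col4a6 had 2 to 12 counts per library and was not tested.

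FACIT collagens decorate the surface of fibrils. Col14a1, the most counted of them, was at 60.5, 82.6 and 87.8 CPM in SKO versus 113, 93.2 and 87.6 CPM in DKO, with overlapping groups, and was not called (edgeR log2 fold change 0.34 ± 0.15, adjusted p = 0.144). It was called higher under total-count scaling, which raised the median of all genes by 0.219 relative to the main fit, and without a filter. Col12a1 rose from 1.84, 2.14 and 3.60 CPM in SKO to 4.70, 5.91 and 4.04 CPM in DKO (edgeR log2 fold change 0.94 ± 0.26, adjusted p = 0.0316). Col16a1 rose from 2.99, 3.34 and 4.33 CPM to 7.43, 4.88 and 5.03 CPM (edgeR log2 fold change 0.70 ± 0.22, adjusted p = 0.0483). Neither gene's groups overlapped, but both calls were fragile. Leaving out replicate 1 or 2 of either group ended the call for Col12a1. That for Col16a1 ended with limma-voom, without robust estimation and in all leave-one-out fits but the one lacking DKO replicate 2. Col20a1 was at 1.20 ± 0.457 and 1.02 ± 0.334 CPM (edgeR log2 fold change -0.22 ± 0.36, adjusted p = 0.715).

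The 3 chains of the classical type VI heterotrimer, which forms beaded filaments close to cells, rose together. Col6a1 was at 9.15, 12.7 and 15.3 CPM in SKO versus 32.0, 21.4 and 22.2 CPM in DKO (edgeR log2 fold change 1.03 ± 0.22, adjusted p = 0.0173). Col6a2 was at 5.84, 7.45 and 9.57 CPM in SKO versus 20.3, 12.7 and 13.3 CPM in DKO (edgeR log2 fold change 1.02 ± 0.23, adjusted p = 0.0198). Col6a3 (chr1:90765923-90843971 (-)), the longest chain, was at 9.08, 12.3 and 13.6 CPM in SKO versus 53.7, 26.2 and 32.9 CPM in DKO (edgeR log2 fold change 1.69 ± 0.32, adjusted p = 0.0180). No DKO library overlapped SKO for any of them, and DKO replicate 1 was the highest for each. Their calls ended without SKO replicate 2, and that of Col6a3 also without SKO replicate 1 and without a filter. Of the later-found chains, Col6a6 was at 0.546 ± 0.187 and 0.649 ± 0.168 CPM and was not called (edgeR log2 fold change 0.27 ± 0.39, adjusted p = 0.668).

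Col18a1 (ENSMUSG00000001435, chr10:77052178-77166548 (-)) fell by about as much as Col6a1 and Col6a2 rose. It encodes a basement membrane collagen with heparan sulphate chains whose C-terminal fragment is endostatin. SKO libraries were at 1182, 1355 and 1338 CPM and DKO libraries at 571, 626 and 669.8 CPM. The groups were far apart, with a 2.08-fold lower mean in DKO (1292 ± 95.7 to 622 ± 49.7 CPM, log2 -1.05 ± 0.11, edgeR adjusted p = 0.000225), and the log2 fold change stayed between -1.12 and -1.0 on leaving out any library. For this gene, unlike most of the others, DKO replicate 1 was the lowest library. Col15a1, the other member of the multiplexin group, was at 12.7 ± 3.46 CPM in SKO versus 15.3 ± 1.93 CPM in DKO (edgeR log2 fold change 0.26 ± 0.18, adjusted p = 0.348). It was called higher only without SKO replicate 3.

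The transmembrane and network-forming collagens tested were not called. Col13a1, a transmembrane collagen, was at 11.4 ± 0.694 and 11.8 ± 2.45 CPM (edgeR log2 fold change 0.05 ± 0.15, adjusted p = 0.861). Col23a1 was at 0.303 ± 0.230 and 0.553 ± 0.244 CPM (edgeR log2 fold change 0.83 ± 0.56, adjusted p = 0.333), from 2 to 15 counts per library. Col8a1, a network-forming collagen of vessels, was at 1.25 ± 0.347 and 1.02 ± 0.513 CPM (edgeR log2 fold change -0.27 ± 0.38, adjusted p = 0.662).

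The other 18 collagen genes were too low to be tested in the main fit, with at most 33 counts in any library. Col6a4, Col19a1 and Col26a1 had no counts at all. Col2a1, Col9a1, Col9a2, Col11a1, Col22a1, Col28a1 and Col17a1 had at most 3 counts in any library, and Col24a1 at most 8. Col25a1 had 18 counts over the SKO libraries and 9 over the DKO libraries, Col7a1 had 21 and 30, Col8a2 had 17 and 31, and Col6a5 had 20 and 36. Col4a6 had 13 and 21. A pair of genes stood out by 1 library: Col10a1, a marker of growth-plate cartilage, had 33 counts in DKO replicate 1 and 0 to 3 in the others, and Col9a3 had 20 in DKO replicate 1 and 1 to 7 elsewhere. At these counts the main fit tested no difference between the groups.

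Col18a1 had the most counts of any collagen gene in each library. All 44 genes together took 0.140%, 0.157% and 0.169% of total counts in SKO and 0.162%, 0.128% and 0.130% in DKO, so the groups overlapped. In normalised CPM they did not. The 44 genes summed to 1509, 1736 and 1772 CPM in SKO versus 1431, 1203 and 1240 CPM in DKO. Col18a1 made up 75.5% to 78.3% of collagen counts in SKO and 39.9% to 54.0% in DKO. The other 43 genes took 0.0304%, 0.0344% and 0.0413% in SKO and 0.0971%, 0.0611% and 0.0598% in DKO, without overlap. For these shares of total counts, the log2 ratio of the group means was -0.15 with Col18a1 and 1.04 without it.

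**Figure D4:**
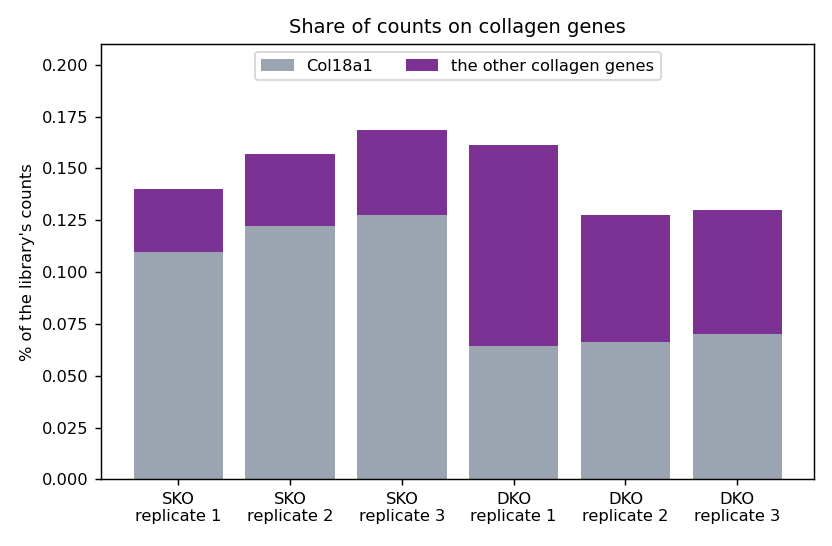
Share of each library's counts (%) on collagen genes, split into Col18a1 (grey) and the other 43 genes (purple). The grey part is smaller in all DKO libraries and the purple part larger, so that the whole bars overlap between groups. The shares are of total counts, and the sums in normalised CPM did not overlap.

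Per length of the annotated exons, the order of levels changed between groups. In CPM per kb, Col18a1 led in both groups with 184 in SKO and 88.6 in DKO. In SKO it was followed by Col14a1 (10.98), Col4a1 (6.86), Col5a3 (5.08), Col4a2 (4.98) and Col3a1 (4.32). In DKO, Col4a1 (14.7), Col14a1 (13.9), Col3a1 (11.96), Col4a2 (8.82), Col1a1 (5.95) and Col6a1 (5.76) followed, and Col5a3 stood at 3.22. The order of Col3a1 depends on the length used: averaged over the 6 libraries it was 8.14 CPM per kb of all annotated exons and 14.4 per kb of its longest transcript, while Col4a1 was 10.8 and 12.1. The place of Col1a2, at 4.02 CPM per kb in DKO, also depends on it. Col1a2 has 12426 bases of annotated exons and 5348 in its longest transcript.

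Chains that assemble into 1 molecule were compared as ratios of counts within each library, which no scaling affects. Type I fibrils usually hold more alpha1 than alpha2 chains, but the counts are of RNA and are not corrected for transcript length. Annotated exons span 6563 bases for Col1a1 and 12426 for Col1a2, so the ratios do not give proportions of protein chains. The ratio of Col1a1 to Col1a2 counts was 0.363, 0.469 and 0.582 in SKO and 0.872, 0.785 and 0.629 in DKO, with all DKO ratios above all SKO ratios. The ratio of Col4a1 to Col4a2 was 1.73, 1.37 and 1.62 in SKO and 1.82, 1.94 and 1.90 in DKO, also without overlap. The ratio of Col6a1 to Col6a2 was 1.57, 1.70 and 1.60 in SKO and 1.57, 1.69 and 1.68 in DKO, and that of Col5a1 to Col5a2 was 1.26, 1.66 and 1.55 in SKO and 1.26, 1.32 and 0.914 in DKO, both with overlap. In 2-sided exact permutation tests of the log2 ratios the p-values were 0.1, 0.1, 0.9 and 0.3, and 0.2, 0.2, 0.9 and 0.4 adjusted over the 4 ratios. With 3 libraries against 3, the smallest p possible is 0.1, so none could pass.

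Col6a1 and Col6a2 lie on the same strand of chromosome 10 with 85161 bases between them and rose alike, while Col18a1, 326009 bases from Col6a1 on that strand, fell. Col3a1 and Col5a2, tail to tail on chromosome 1 with 24614 bases between them, both rose.

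Genes that mature, bind and break down collagen were described from 7 lists drawn from general knowledge. Of 94 genes, 83 were tested, 30 were called higher and 9 lower, with a median log2 fold change of 0.29. Among all genes tested 10.3% were higher and 9.7% lower, so the share of list genes that were lower was near the background, as were the 2 of 17 folding and export genes that rose and the 2 of 20 regulators that fell. The number called higher dropped to 17 without SKO replicate 2 and 18 without SKO replicate 3. The number called lower dropped to 5 without SKO replicate 2 and to 4 under total-count scaling, where 44 were higher.

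Inside the ER, 4 of 13 hydroxylation and glycosylation genes rose and 1 fell. P4hb, the protein disulfide isomerase that is also the beta subunit of prolyl 4-hydroxylase, fell from 1446, 1499 and 1603 CPM in SKO to 705, 615 and 660.4 CPM in DKO (edgeR log2 fold change -1.20 ± 0.10, adjusted p = 8.35e-05). Its catalytic partners were not called lower. P4ha1 was at 12.98 ± 2.81 and 15.2 ± 2.04 CPM and was not called (log2 0.23 ± 0.16), and P4ha2 rose from 9.13 ± 1.04 to 13.2 ± 2.04 CPM (edgeR log2 fold change 0.53 ± 0.14, adjusted p = 0.0248), a call lost without DKO replicate 1 and on leaving out replicate 2 or 3 of SKO. P3h3, of the prolyl 3-hydroxylase family (log2 0.87 ± 0.19), and Plod2, a lysyl hydroxylase (log2 0.93 ± 0.28), rose, the latter without support from DESeq2 or limma-voom. The fourth was the galactosyltransferase gene Colgalt1 (log2 0.23 ± 0.07), also not called by DESeq2 or limma-voom. Plod2 and Colgalt1 were each called in only 1 of the 6 fits without 1 library, the one lacking DKO replicate 2.

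Among 17 folding and export genes, 2 rose and 4 fell. Serpinh1, the collagen-specific chaperone HSP47, rose from 18.5, 16.5 and 15.5 CPM in SKO to 35.6, 29.9 and 23.0 CPM in DKO (edgeR log2 fold change 0.81 ± 0.15, adjusted p = 0.00743), and Fkbp10, a collagen-binding prolyl isomerase, also rose (log2 1.23 ± 0.28). Ppib, the ER cyclophilin that works on procollagen, fell from 68.5 ± 4.78 to 48.1 ± 1.06 CPM (edgeR log2 fold change -0.51 ± 0.07, adjusted p = 0.00138). The coat subunit Sec24d fell (log2 -0.59 ± 0.08), as did Mia3, which encodes the procollagen export receptor TANGO1 (215 ± 14.7 to 165 ± 10.6 CPM, log2 -0.39 ± 0.09), and its partner Mia2 (log2 -0.44 ± 0.09). Mia2 and Mia3 lost their calls without SKO replicate 2 and under total-count scaling.

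In propeptide processing, 4 of 7 genes rose and 1 fell. Adamts2, the main procollagen N-proteinase, rose from 6.4 ± 0.762 to 15.5 ± 4.62 CPM (edgeR log2 fold change 1.28 ± 0.21, adjusted p = 0.00432), and Pcolce, which enhances the C-proteinase, from 10.9 ± 1.03 to 19.9 ± 2.96 CPM (log2 0.87 ± 0.13). Adamts3 (log2 1.68 ± 0.38) and Adamts14 (log2 1.09 ± 0.26) also rose, but neither was called without SKO replicate 2 or without SKO replicate 3, and Adamts3 was not called by DESeq2. The C-proteinase gene Bmp1 was at 160.4 ± 16.5 and 155 ± 12.5 CPM (edgeR log2 fold change -0.05 ± 0.10, adjusted p = 0.778), and the proprotein convertase Furin fell (edgeR log2 fold change -0.80 ± 0.09, adjusted p = 0.000334). Of 5 lysyl oxidases, which crosslink collagen, Loxl1 (1.61 ± 0.294 to 6.70 ± 2.42 CPM, log2 2.05 ± 0.28) and Loxl2 (log2 1.08 ± 0.20) rose. Lox was at 0.699, 0.219 and 0.225 CPM in SKO versus 2.48, 0.879 and 0.726 CPM in DKO, without overlap but not called (edgeR log2 fold change 1.89 ± 0.64, adjusted p = 0.0689). DESeq2, total-count scaling, the fit without a filter and the fit without SKO replicate 1 called it higher.

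Among 8 collagen receptors tested, 4 rose and 4 were not called. The discoidin domain receptors Ddr1 (2.79 ± 0.334 to 11.8 ± 4.39 CPM, log2 2.09 ± 0.27) and Ddr2 (8.12 ± 0.732 to 13.6 ± 2.46 CPM, log2 0.75 ± 0.15) and, less firmly, the leukocyte receptor Lair1 (log2 0.80 ± 0.22) and the adhesion receptor Adgrg1 (log2 0.61 ± 0.17) were higher. The integrin subunits Itga1 (log2 -0.07 ± 0.07) and Itgb1 (log2 -0.20 ± 0.09) were not called. Lair1 and Adgrg1 lost their calls in at least 4 of the fits without 1 library.

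Among 13 degradation and uptake genes, 8 rose and 1 fell. Mmp12, a macrophage metalloproteinase, rose from 1.84, 2.30 and 3.38 CPM in SKO to 34.6, 17.9 and 22.9 CPM in DKO (edgeR log2 fold change 3.32 ± 0.33, adjusted p = 0.00125). The gelatinase Mmp2 (log2 2.11 ± 0.27), the membrane-bound Mmp15 (log2 0.50 ± 0.07) and Mrc2, the endocytic collagen receptor (2.44 ± 0.151 to 6.73 ± 1.61 CPM, log2 1.47 ± 0.21), rose too. So did Timp1 and Timp2, which encode metalloproteinase inhibitors (log2 2.07 ± 0.38 and 0.76 ± 0.14). The metalloproteinase genes Mmp13 (0.712 ± 0.364 to 5.05 ± 2.03 CPM, log2 2.82 ± 0.43) and Mmp14 (log2 0.45 ± 0.12) were higher as well. Mmp13 was called in each fit without 1 library, and Mmp14 in 1 of the 6. The gene that fell was Mmp19 (log2 -0.37 ± 0.06), though not under total-count scaling.

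Of 20 regulators, 6 rose and 2 fell. Pdgfra, a receptor for platelet-derived growth factors, rose from 9.57 ± 1.59 to 21.4 ± 5.69 CPM (edgeR log2 fold change 1.16 ± 0.20, adjusted p = 0.00686). Pdgfb (log2 1.02 ± 0.26), Tgfb3 (log2 1.03 ± 0.26) and Creb3l1, an ER-bound activator of collagen genes (0.937 ± 0.281 to 2.56 ± 1.36 CPM, log2 1.45 ± 0.41, edgeR adjusted p = 0.0343), rose as well. Tgfb1 was at 10.4 ± 1.45 and 12.98 ± 3.09 CPM and was not called (edgeR log2 fold change 0.33 ± 0.17, adjusted p = 0.221). Smad4, the common mediator of TGF-beta signals, fell (edgeR log2 fold change -0.37 ± 0.09, adjusted p = 0.0150), though not under total-count scaling or without SKO replicate 2, SKO replicate 3 and DKO replicate 3 in turn, and so did Smad2 (log2 -0.29 ± 0.09), whose call ended on leaving out any library. Calls for Pdgfb, Tgfb3 and Creb3l1 held in at most 2 of the 6 fits without 1 library. Pdgfrb (log2 0.83 ± 0.21) and Ski (log2 0.25 ± 0.08) were also called higher. The call for Pdgfrb held in 4 of those 6 fits, and that for Ski ended on leaving out any library and with DESeq2 or limma-voom.

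**Figure D5:**
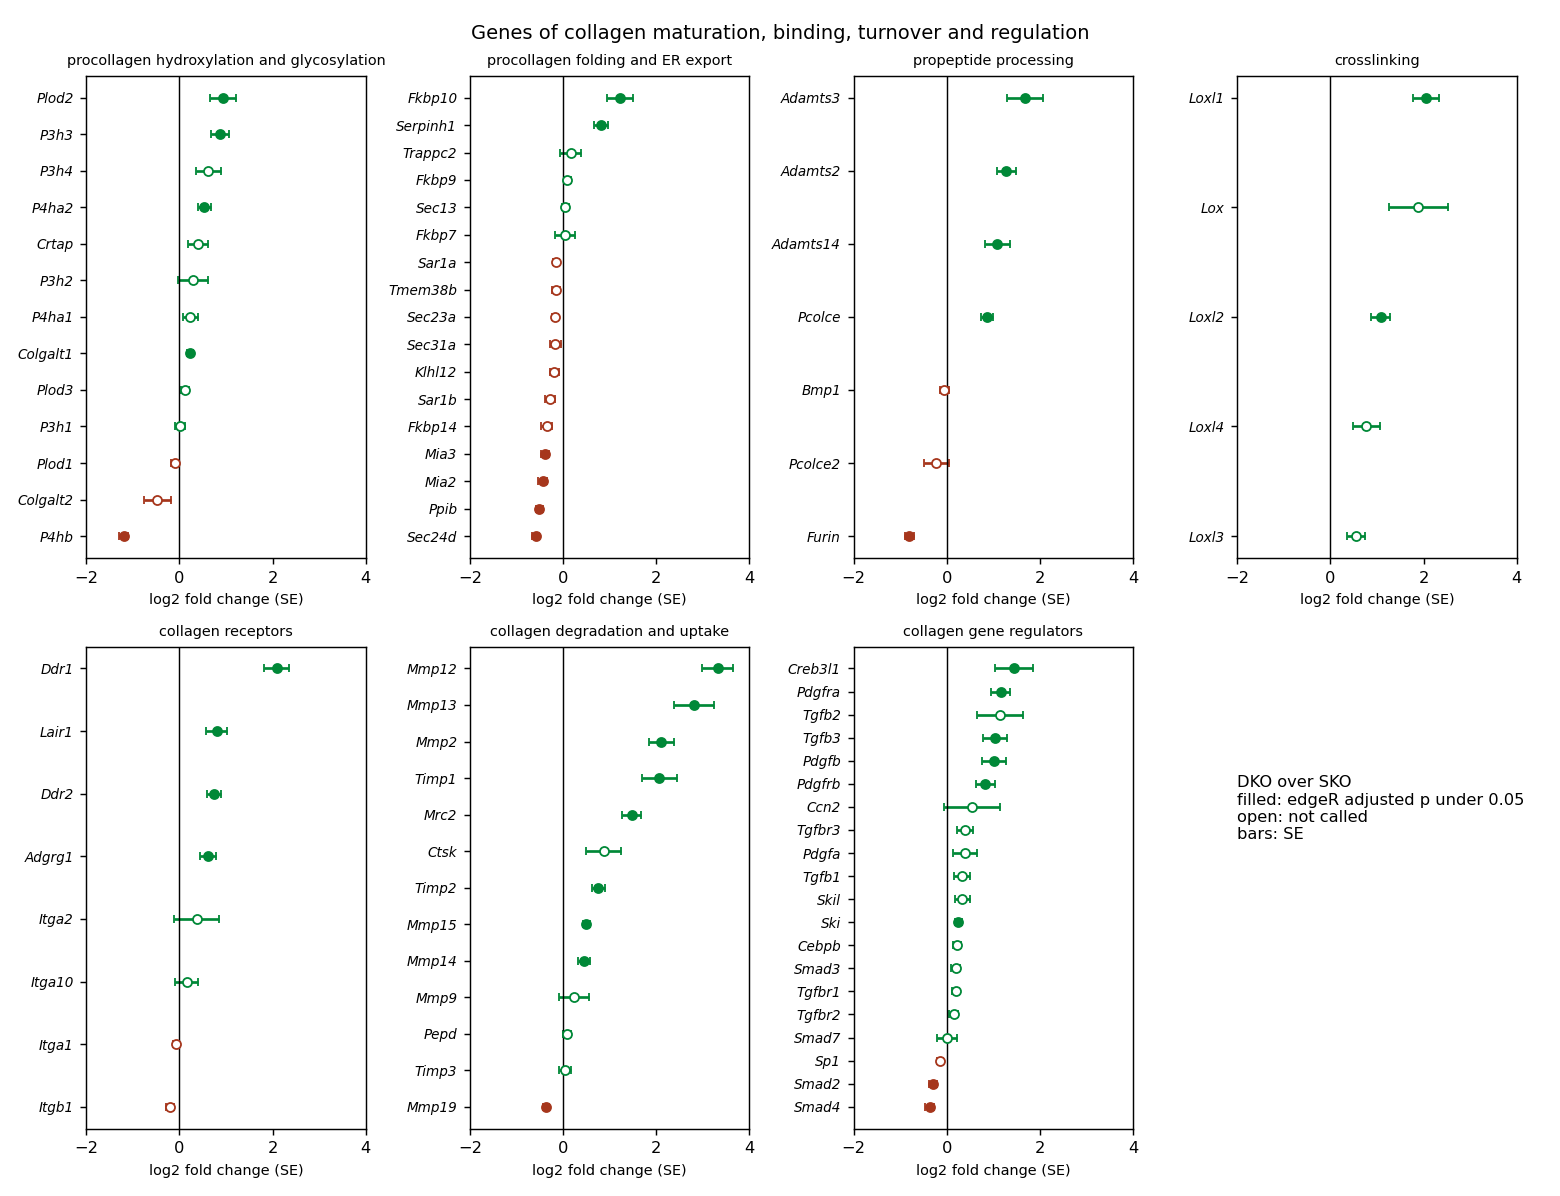
Log2 fold change of DKO over SKO, with SE bars, for the 83 tested genes of 7 lists on collagen maturation, binding, turnover and regulation (filled points, edgeR adjusted p under 0.05). P4hb at -1.20 lies apart from the other hydroxylation genes, and Mmp12 at 3.32 is the largest rise.

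Some markers of several cell types were also called higher in DKO. Among all genes tested 10.3% were called higher and 9.7% lower. Summed over 10 stellate cell markers, levels were 263 to 335 CPM in SKO versus 382 to 477 CPM in DKO, with 5 of 10 called higher, among them Rgs5 (log2 0.60 ± 0.09) and Des (log2 0.78 ± 0.22). The stellate cell gene Lrat was at 18.3, 23.8 and 19.2 CPM in SKO versus 54.1, 22.3 and 34.4 CPM in DKO, with overlap and no call. Portal fibroblast markers summed to 10.4 to 14.7 and 21.4 to 39.1 CPM, and 3 of 5 tested were higher: Eln (log2 1.99 ± 0.42), Mfap4 (log2 2.26 ± 0.38) and Cd34 (log2 0.94 ± 0.22). The 6 myofibroblast markers summed to 14.1 to 21.1 CPM in SKO and 19.3 to 31.9 CPM in DKO, with overlap. Timp1 and Fbln2 rose, while Tagln, Lox and Postn were not called. Acta2, the defining smooth muscle actin, was not called either, at 3.49 ± 1.72 and 3.89 ± 2.10 CPM (edgeR log2 fold change 0.19 ± 0.47, adjusted p = 0.819).

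Macrophage markers summed to 417 to 524 CPM in SKO versus 529 to 814 CPM in DKO, with 2 of 6 higher, against 10.3% of all genes tested. Cholangiocyte markers summed to 26.6 to 32.4 and 29.2 to 46.4 CPM, with overlap, and 2 of 6 were higher, Krt19 and Epcam. None of 6 endothelial markers was called, with sums of 346 to 376 and 321 to 354 CPM. Of 6 hepatocyte markers 4 fell, Alb, Ttr, Apoa1 and Serpina1c, against 9.7% of all genes tested. The hepatocyte sum went from between 78704 and 105489 CPM to between 49621 and 62890 CPM. Most of that sum was Alb, at 53050 to 75487 CPM in SKO and 31356 to 41461 CPM in DKO. Cps1 (log2 -0.24 ± 0.16) and Pck1 (log2 0.52 ± 0.39) were not called. No smooth muscle (2 tested), mesothelial (3), cartilage (1) or pancreatic acinar (1) marker was called, with sums of 9.79 to 11.4 and 9.95 to 13.7, 4.22 to 7.40 and 4.15 to 6.30, 17.2 to 28.1 and 15.03 to 24.8, and 28.8 to 40.1 and 18.2 to 29.8 CPM in SKO and DKO. Matn1, Prss2, Cpa1 and Pnlip were at 0 counts. Of the called markers, Rgs5, Timp1, Mfap4, Cd68 and Serpina1c were called in each fit without 1 library, and all others lost their call at least without SKO replicate 2. Des and Ttr were called in 2 of those 6 fits, and Hgf and Fbln2 in 1. Des and Hgf were not called by limma-voom, Fbln2 not by DESeq2, and Ttr not by limma-voom, with upper-quartile or total-count scaling or without robust estimation. DKO replicate 1 had the highest sum of stellate, portal fibroblast, myofibroblast, macrophage and cholangiocyte markers. The part of these cell types in the collagen differences was not tested.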

How the data were processed

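Unnormalised counts of reads, as deposited by the authors, cover 54232 Ensembl genes, 1 file for each of 6 liver libraries. Per the submitters' processing notes, cutadapt 1.13, STAR, HTSeq 0.6.1p1, DESeq2 and build mm10 were used. The sources used here give neither their roles and settings nor the annotation and the use of strand, so reads of overlapping genes on either strand may be dropped or shared. Groups follow the genotype in the labels, and replicate numbers follow accession order. Symbols, exons and coordinates come from GENCODE M21, on the mm10 assembly, which held 54165 of the identifiers. No rows for unassigned reads were found (0 removed).

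Counts were filtered with filterByExpr, scaled with TMM factors (0.903 to 0.951 in SKO, 1.05 to 1.13 in DKO) and tested with glmQLFit and glmQLFTest, robust, in edgeR 4.0.16 (R 4.3.3), comparing DKO with SKO (4 residual degrees of freedom). P-values were Benjamini-Hochberg adjusted over all 13986 genes tested, with calls made at adjusted p below 0.05. CPM are counts scaled to the library total times its TMM factor. SEs were derived as |log2 fold change| over √F. Alternatives were upper-quartile and total-count scaling, DESeq2 1.42.0, limma-voom (limma 3.58.1), no filter, no robust estimation and leaving out each library. The fit was tested on simulated data. The members, classes and lists were chosen with earlier results of these data known, so lists are described by counts and medians. All tested collagen genes are named. Machinery genes named are the called ones with the smallest p, at most 4 per list, plus P4hb, P4ha1, Serpinh1, Mia3, Lox, Ddr2 and Mrc2. Colgalt1, Fkbp10, Adamts14, Itga1, Itgb1, Bmp1, Timp1, Timp2, Mmp13, Mmp14, Mmp19, Creb3l1, Tgfb1, Smad2, Pdgfrb and Ski were added after their values were seen. One listed symbol, Ctgf, was matched as Ccn2.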

Additional observations from a re-analysis of the deposited data

How the results depend on the processing

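Without Col18a1 the log2 ratio of the collagen share of counts, DKO over SKO, turned from -0.15 to 1.04. On leaving out 1 library, collagen genes called higher numbered 5 to 12 and lower 2 to 3, and their median log2 fold change was 0.65 to 0.89. Collagen machinery genes called higher numbered 17 to 30 and lower 5 to 8. Under total-count scaling 4 machinery genes were lower. With the 6 other tools and settings, 12 to 16 collagen genes were higher and 2 to 3 lower. Of 312 refits of single collagen genes, 264 kept their side of the threshold, 31 lost and 17 gained a call. No paired analysis was possible because replicate numbers follow accession order and pair no libraries between groups. Depth limits the 18 untested collagen genes, whose counts were too low to test in the main fit.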

Other observations

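In DKO replicate 1 a few cartilage genes had more counts than in the other libraries. Beside 33 counts of Col10a1, against 0 to 3 elsewhere, it had 9 of Acan, the cartilage proteoglycan, against 0 in the other 5 libraries, and 9 of Comp, a cartilage matrix protein, against 0 to 2. Col2a1, the main cartilage collagen, had 2 counts there and 0 elsewhere, and Matn1 had none. Among other collagen genes of cartilage, of types IX, XI and XXVII, only Col9a3 was highest there, with 20 counts against 1 to 7 elsewhere. Col9a1 and Col9a2 had 0 counts there and Col11a1 had 1. Col11a2 was highest in DKO replicate 3, and Col27a1 was at only 13.9 CPM in DKO replicate 1 and highest in SKO replicate 3. Sox5, the remaining gene of the cartilage marker list, had 270 to 513 counts in every library, and its level was lowest in DKO replicate 1, at 14.3 CPM. This pattern was singled out after the values were seen, and the excess in DKO replicate 1 was not tested. Of these genes only Sox5, Col11a2 and Col27a1 were tested between the groups in the main fit, and none was called. For Sox5 the edgeR log2 fold change was -0.27 ± 0.25 (adjusted p = 0.503). Col10a1 shares 18 exon bases with Nt5dc1, a gene on the other strand that had 399 to 549 counts in every library.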
